A study of Mus musculus with 6 samples.

Results

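The strongest CDK6-bound regions of mouse pre/pro-B leukaemia lines were defined as the merged peak regions in which each of 4 anti-HA ChIP-seq peak lists held a peak with a fold enrichment of at least 12 at its summit. Fold enrichment is the ratio of the scaled reads at the peak's highest point to the local background, with 1 added to each. Of 56716 merged regions on chromosomes 1 to 19 and X, 16376 had a peak in all 4 lists, and 205 of these passed the threshold in every list, which is 1.25% of the regions in all 4 lists. These 205 regions are called members, and the 16171 remaining regions in all 4 lists serve as the comparison. The members were thus chosen by their fold enrichment, so that fold enrichments and ranks are given below as a description with no test.

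All 4 libraries came from lymphoid cell lines raised from bone marrow of C57BL/6 mice that lacked Cdk6 (Cdk6-/-) and carried BCR::ABL1. Into these cells an HA-tagged form of CDK6 was placed by overexpression, either wildtype (CDK6-WT, 2 libraries) or CDK6-K43M, in which the kinase is inactive (2 libraries). Proteins were crosslinked with DSG and formaldehyde and immunoprecipitated with an anti-HA antibody. The tagged protein therefore replaces the endogenous kinase at a level set by the vector, and nothing in the labels says whether the replicates were separate cultures or cell lines. The series also lists 2 inputs, numbered 1 and 2, which were not analysed here. An exact test of 2 libraries against 2 cannot give a p below 0.333.

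CDK6 is a cyclin-dependent kinase that binds D-type cyclins, phosphorylates the retinoblastoma protein and so drives cells into S phase. It also sits on chromatin, but has no DNA-binding domain of its own and reaches DNA through other proteins. In precursors of B cells, the basic helix-loop-helix E proteins encoded by Tcf3 (E2A) and Tcf12, together with EBF1, PAX5, RUNX1 and ETS-family factors, occupy promoters and enhancers of lymphoid genes. E proteins recognise the E-box, a word of the form CANNTG, and STAT5 acts downstream of the BCR::ABL1 kinase.

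The sequence at the summit shows what these regions look like. The summit is that of the peak with the highest fold enrichment in the region, and the stretches below cover 50 bases to each side of it, taken from the plus strand of GRCm38 (mm10). The name before each stretch is the nearest gene and the class of the whole region, which is wider than the stretch. Capitals mark the words searched for in all regions, namely E2A (CAGCTG or CAGGTG), RUNX (the word TGTGGTT, the word TGCGGTT, the word TGTGGTC and the word TGCGGTC), the ETS core (GGAAGT), EBF (CCCNNGGGA), AP-1 (TGANTCA), STAT (TTCNNNGAA) and NFY (the word CCAATCA, the word CCAATGA, the word CCAATCG and the word CCAATGG), on either strand. The first 5 are the members with the lowest mean rank over the 4 lists, and the last 2 are the highest-ranked members shown with an AP-1 word or with EBF and NFY words.
Wnt10a exon, chr1:74800557-74800657: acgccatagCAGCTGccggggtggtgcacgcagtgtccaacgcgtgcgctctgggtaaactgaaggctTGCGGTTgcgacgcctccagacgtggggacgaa
Lifr upstream, chr15:7085210-7085310: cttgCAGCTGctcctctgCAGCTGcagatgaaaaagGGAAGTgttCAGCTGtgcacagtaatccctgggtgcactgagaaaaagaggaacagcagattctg
Cuedc1 promoter, chr11:88187868-88187968: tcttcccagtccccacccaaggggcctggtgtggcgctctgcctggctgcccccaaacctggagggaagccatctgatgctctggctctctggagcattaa
Fmnl3 intron, chr15:99333030-99333130: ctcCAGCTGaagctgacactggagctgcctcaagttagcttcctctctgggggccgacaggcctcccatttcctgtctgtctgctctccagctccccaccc
Rmi2 intron, chr16:10844139-10844239: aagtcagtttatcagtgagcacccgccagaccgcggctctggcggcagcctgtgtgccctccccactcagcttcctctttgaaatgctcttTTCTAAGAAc
Nod2 intron, chr8:88668748-88668848: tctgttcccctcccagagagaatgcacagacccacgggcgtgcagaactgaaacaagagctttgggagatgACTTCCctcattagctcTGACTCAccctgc
Notch1 exon, chr2:26483271-26483371: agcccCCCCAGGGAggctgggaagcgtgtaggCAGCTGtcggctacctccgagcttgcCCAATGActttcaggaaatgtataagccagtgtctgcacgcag

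Fold enrichments of the members covered a narrow range above the threshold, as the plot of the members by list shows. In CDK6-WT replicate 1 they ran from 12.01 to 33.6 with a median of 15.2, and in CDK6-K43M replicate 1 from 12.2 to 32.02 with a median of 15.4. In CDK6-WT replicate 2 they ran from 12.01 to 38.3 with a median of 15.99, and in CDK6-K43M replicate 2 from 12.1 to 44.8 with a median of 15.96. The medians of the 4 lists lay close together although the lists differ in how many peaks pass. A fold of at least 12 was reached by 4530 of 35172 peaks (12.9%) in CDK6-WT replicate 1 and by 4818 of 39777 (12.1%) in CDK6-K43M replicate 1. It was reached by 1863 of 34717 peaks (5.37%) in CDK6-WT replicate 2 and by 2014 of 37288 (5.40%) in CDK6-K43M replicate 2. The weakest member therefore stood at the 87.1 percentile of its list in CDK6-WT replicate 1 and at the 94.7 percentile in CDK6-WT replicate 2.

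**Figure D1:**
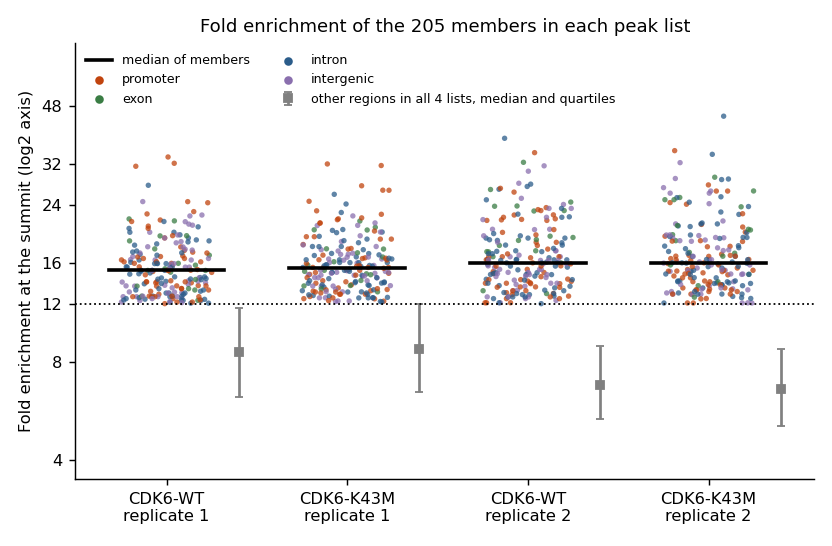
Each point is 1 of the 205 members, coloured by its location class, with its fold enrichment in that list on a log2 axis. Black bars are the medians of the members (15.2, 15.4, 15.99 and 15.96 from left to right), grey squares with bars are the median and quartiles of the 16171 other regions in all 4 lists, and the dotted line is the threshold of 12.

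The depth behind these values is modest. Reads at the summit, recovered from the fold enrichment and −log10 p of each peak, numbered between 30 and 110 per member in CDK6-WT replicate 1 (median 43) and between 33 and 112 in CDK6-WT replicate 2 (median 49). In CDK6-K43M replicate 1 they numbered between 37 and 137 (median 55) and in replicate 2 between 30 and 114 (median 45). Counting error alone was thus 13.5% to 15.2% of the value at the median member. On the log2 scale, the SD between members was 0.28 to 0.35, where counting error alone would give 0.19 to 0.22. With a counting error of this size, differences of a few ranks inside a list lie within it. The local background of the members had medians of 1.67 to 1.896 over the lists, where the lowest values were 1.496 to 1.59. In the other regions in all 4 lists its medians were 1.84 to 2, and the median reads at the summit were 19 to 33. The members thus differed from the other regions more in reads than in background.

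The libraries resembled each other by replicate number and not by variant. Of the regions with a fold of at least 12, 3376 were shared by both replicate 1 lists, which is 75.04% of those in CDK6-WT and 70.3% of those in CDK6-K43M. Both replicate 2 lists shared 1289, which is 69.6% and 64.5%. Both CDK6-WT lists shared 430, which is 9.56% of those in replicate 1 and 23.2% of those in replicate 2, and both CDK6-K43M lists shared 410 (8.53% and 20.5%). The members are what is left of each strong set once the other replicate number is required as well. They made up 2.63% of the 7803 regions that reached 12 in any list. What the replicate numbers stand for is not given in the sources used here, and their part in the choice of members was not tested. The local background divides each fold, and it can be alike within a number. At the region near Lifr it was 1.683 in CDK6-WT and 1.738 in CDK6-K43M of replicate 1, and 1.98 and 1.95 in replicate 2. At the Cuedc1 promoter it was 1.836 and 1.896, and then 1.65 and 1.62. Whether the libraries of a number share an input was not tested. Values within each number are therefore given beside those over all 4 lists.

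The 10 members with the lowest mean rank were 4 regions within or near genes and 6 at promoters. The first lay over an exon of Wnt10a (ENSMUSG00000026167.14), which encodes a secreted WNT ligand, at chr1:74799402-74801926. Its folds were 21.8 and 24.5 in CDK6-WT replicates 1 and 2 and 21.5 and 25.3 in CDK6-K43M replicates 1 and 2. All 4 values lay well above the medians of their lists, and the summits of the 4 lists fell within 137 bp. The second, at chr15:7084768-7085578, lay 5354 bp upstream of Lifr, which encodes a subunit of the receptor for leukaemia inhibitory factor. Its folds were 24.6 and 24.1 in CDK6-WT and 19.3 and 27.1 in CDK6-K43M, so that the variants overlapped. Its printed summit holds 3 CAGCTG words and an ETS core.

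The promoter of Cuedc1, which encodes a protein with a ubiquitin-binding CUE domain, had folds of 22.9 and 19.8 in CDK6-WT and of 21.7 and 20.95 in CDK6-K43M. The printed stretch of that region holds none of the words marked. An intron of Fmnl3, a formin that acts on actin filaments, had folds of 19.8 and 17.3 in CDK6-WT and of 25.9 and 21.2 in CDK6-K43M. In this region CDK6-K43M was higher within both replicate numbers, but the nearest values, 19.8 and 21.2, rest on only 50 and 58 reads. An intron of Rmi2, a subunit of the BLM helicase complex that preserves genome stability, had folds of 19.8 and 27.3 in CDK6-WT and of 18.9 and 34.3 in CDK6-K43M. Here both replicate 2 values were above both replicate 1 values, and the printed summit holds a STAT word.

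A broad region of 5599 bp over the Hist1h1a cluster on chromosome 13, which holds linker and core histone genes, was assembled from 18 peaks. Its folds were 16.7 and 34.7 in CDK6-WT and 24.6 and 35.2 in CDK6-K43M, and its summits lay up to 2410 bp apart, so that the lists did not peak at the same gene of the cluster. The region on chromosome 11 whose nearest protein-coding start is Tex14 lay at a promoter of Rnu3b4, one of the genes for the U3 small nucleolar RNA of ribosomal RNA processing. Its folds were 19.1 and 26.3 in CDK6-WT and 18.9 and 27.6 in CDK6-K43M. Histone and U3 genes have near-identical copies, and reads could have been split between them or removed with the multimapping reads, so the values of both regions are uncertain.

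The last members of the 10 were promoters of protein-coding genes. The shared promoter of Uspl1, a SUMO protease, and Hmgb1, a chromatin protein, had folds of 31.5 and 18.5 in CDK6-WT and 31.7 and 14.4 in CDK6-K43M. That of Ankle2, which acts in reassembly of the nuclear envelope, had folds of 24.6 and 14.95 in CDK6-WT and 26.6 and 16.5 in CDK6-K43M. In both regions each replicate 1 value was above each replicate 2 value. The promoter of Lta, which encodes the cytokine lymphotoxin alpha, had more even folds of 21.4 and 18.5 in CDK6-WT and 19.2 and 18.7 in CDK6-K43M.

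The threshold itself separated near-equal regions. Just inside it, the lowest fold over the 4 lists was 12.01 for an intron of Cds1, an enzyme of phospholipid synthesis, and for the promoter region near Sympk, a scaffold of mRNA 3′ end processing. It was 12.06 for an intron of Wbp1l. Just outside, the lowest fold was 11.98 for regions near Foxo1, a transcription factor needed in early B cells, near Tex30 and near Plxna1, a semaphorin receptor. The Foxo1 region, 190556 bp from the start of that gene, reached 15.6 and 11.98 in CDK6-WT and 13.6 and 19.1 in CDK6-K43M, and the region at the Tex30 promoter reached 19.4 and 11.98 in CDK6-WT and 20.6 and 14.3 in CDK6-K43M. These gaps are far below the counting error.

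Members lay away from transcription starts more often than the other regions. A region was called a promoter where it reached into the stretch of 2000 bp upstream and 200 bp downstream of a transcript start, otherwise exonic, intronic or intergenic in that order. Promoters made up 64 of the 205 members (31.2%, 95% Wilson interval 25.3% to 37.9%) and 50.5% of the other regions in all 4 lists. The difference was -19.3 percentage points (95% Newcombe interval -25.3 to -12.6). Introns held 70 members (34.1%) against 24.1% of the others, a difference of 10.0 points (3.84 to 16.8). Intergenic sequence held 52 members (25.4%) against 19.3%, a difference of 6.02 points (0.516 to 12.4), and exons held 19 (9.27%) against 6.04%, with an interval that includes 0. These intervals cover counting error only and treat regions as independent, which neighbouring regions are not. Without CDK6-K43M replicate 2, and so with 3 lists left to pass, 329 regions passed and 44.4% of them were promoters, a difference of -6.20 points (-11.5 to -0.748). Among the 29 members with a fold of at least 15, 34.5% were promoters and the interval of the difference included 0.

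The median member lay 8636 bp from the nearest protein-coding start, where the median of the other regions was 2189 bp. Members lay within 200 bp of such a start in 13.7% of cases against 34.0%, and farther than 10000 bp in 46.8% against 33.5%. Members were also wider, with a median of 1162 bp against 715 bp. Of the 64 promoter members, 53 overlapped a promoter of any transcript of a protein-coding gene and 11 only promoters of other gene types. Even at promoters, the sequence of members differed from that of the other regions. Only 20 of 64 promoter members (31.3%) had a CpG observed to expected ratio of at least 0.6 at the summit, a usual mark of CpG islands, against 69.0% of the other promoter regions (difference -37.8 points, interval -47.9 to -25.6). Outside promoters the shares were 5.67% and 7.04%, with an interval that includes 0.

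The promoter share did not fall steadily with strength. As the plot of shares against the lowest fold shows, it was 44.4% among regions whose lowest fold was under 4, rose to 53.4% between 6 and 8, and was 46.8% between 8 and 10 and 39.6% between 10 and 12. It was 30.7% for the 176 members with a lowest fold between 12 and 15.

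**Figure D2:**
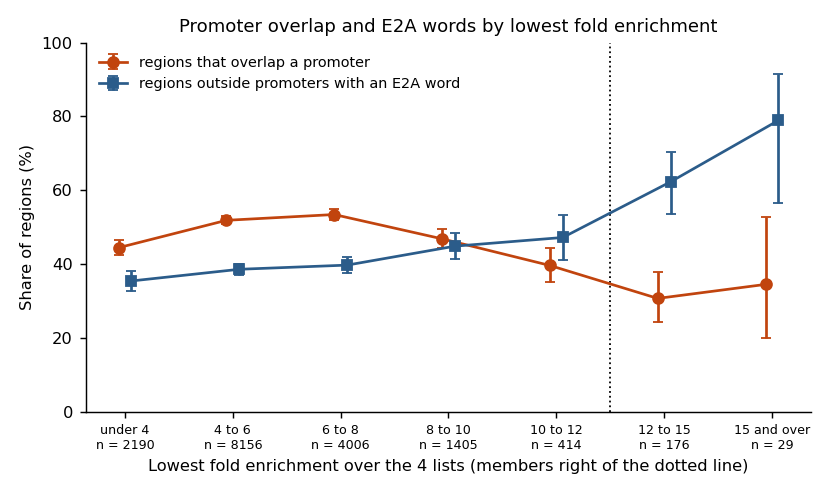
Share of regions in all 4 lists that overlap a promoter (circles) and share of those outside promoters with an E2A word within 100 bp of the summit (squares), by the lowest fold enrichment over the 4 lists, with 95% Wilson intervals. The n under each bin counts all regions in it. The promoter share ends at 34.5% and the E2A share at 78.9% (15 of 19 regions outside promoters) in the bin of 15 and over.

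Location depended on which lists a region was strong in. Regions that reached 12 in both replicate 1 lists but not in both replicate 2 lists (n = 2841) were promoters in 79.0% of cases (77.4% to 80.4%), with a median distance of 77 bp to the nearest protein-coding start. Regions that reached 12 in both replicate 2 lists but not in both replicate 1 lists (n = 886) were promoters in 24.6% (21.9% to 27.5%), with a median distance of 10854.5 bp. The members, strong in both, had 31.2% promoters and so lay near the replicate 2 set, whose interval overlaps theirs. The source of the difference between the replicate numbers was not tested.

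**Figure D3:**
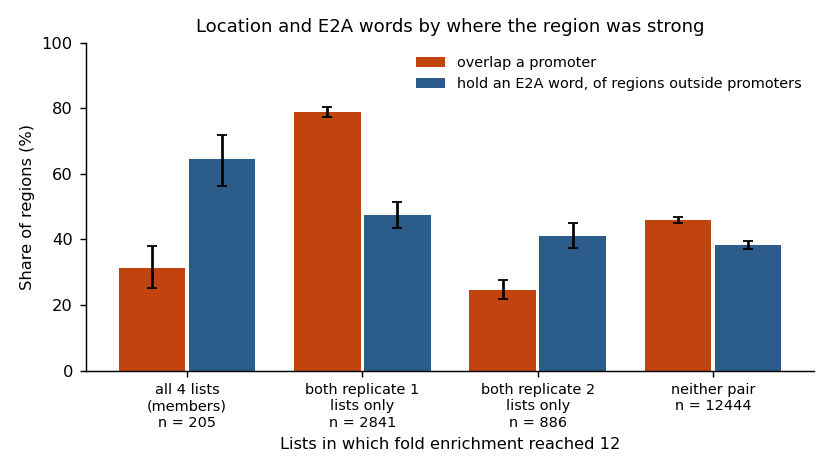
Bars give the share of regions that overlap a promoter and, among regions outside promoters, the share with an E2A word within 100 bp of the summit, with 95% Wilson intervals, for the members and for the other regions in all 4 lists. "Only" means that the fold did not reach 12 in both lists of the other replicate number. The promoter share is 79.0% in the replicate 1 set and 24.6% in the replicate 2 set, and the E2A share is highest in the members, at 64.5%.

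The word of E proteins stood out at the members' summits. In all, 15 motifs were searched for in windows that reached 100 bp to each side of the summit. No adjustment was made for their number, and the 95% interval of the difference to the other regions lay above 0 for 2, below 0 for 2 and included 0 for 11. An E2A word was found in 113 members (55.1%, 48.3% to 61.8%) and in 31.7% of the other regions, a difference of 23.4 points (16.5 to 30.1). In windows 1000 bp to either side of the members' summits the share was 25.9%, and beside the other regions it was 22.6%. Since members lie less often at promoters, the classes were also compared separately. Outside promoters, 91 of 141 members (64.5%) and 39.2% of the other regions held an E2A word, a difference of 25.3 points (17.1 to 32.8). At promoters the shares were 34.4% and 24.4%, and the interval included 0 (-0.470 to 22.3). The median GC content of the windows outside promoters was 53.7% in members and 50.7% in the others, and its part in the difference was not tested.

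Divided into its words, a split made after these values had been seen, the difference was largest for CAGCTG among all 10 words of the form CANNTG, counted on both strands. Outside promoters this palindrome was in 71 of 141 members (50.4%) and in 25.6% of the other regions (difference 24.7 points, 16.5 to 32.9), and in the flanking windows of the members in 11.7%. At promoters it was in 31.3% of the members and 14.2% of the others (difference 17.1 points, 7.005 to 29.2). The other E2A word, CAGGTG, was found outside promoters in 22.7% of members and 18.5% of the others, with an interval that includes 0. The other words of the form CANNTG were compared in the same way, with no adjustment for their number. At promoters the interval also lay above 0 for CACATG (difference 12.0131 points, 4.31 to 23.2), CAAGTG (8.13 points, 1.19 to 18.9) and CAACTG (6.92 points, 0.412 to 17.5), and outside promoters for CAACTG (5.85 points, 0.267 to 13.1). More than a single word was common: 31 of the 141 members outside promoters (22.0%) held at least 2 E2A words against 9.10% of the other regions, and 6 held at least 3, as the printed Lifr summit does.

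The E2A share outside promoters was higher in each successive bin of the lowest fold, and the intervals of neighbouring bins overlapped except between 10 to 12 and 12 to 15. It was 35.4% under 4, 38.6% between 4 and 6, 39.7% between 6 and 8, 44.8% between 8 and 10 and 47.2% (41.1% to 53.4%) between 10 and 12. Among the members it was 62.3% (53.4% to 70.4%) between 12 and 15. At 15 and over it was 78.9%, which rests on 15 of only 19 regions (56.7% to 91.5%). It was 47.4% (43.4% to 51.4%) in the set strong in replicate 1 only and 41.2% (37.5% to 44.9%) in the set strong in replicate 2 only, and both intervals lie below that of the members (56.4% to 72.0%). Within the members, however, the folds differed little by word. Members outside promoters with an E2A word had median folds of 15.2, 16.3, 15.6 and 16.1 in CDK6-WT replicates 1 and 2 and CDK6-K43M replicates 1 and 2, and those without had 14.6, 15.9, 14.9 and 16.1.

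The words lay at the summits. As the plot of positions shows, 18.4% to 24.1% of the members outside promoters held an E2A word in each bin of 50 bp within 100 bp of the summit, and 4.96% to 8.51% in the bins between 200 and 400 bp away, with 12.8% in the last bin on the side of higher coordinates. In the other regions the highest bin was 14.4%, just beyond the summit on the side of higher coordinates. Where a window held a word, the nearest was centred a median of 36 bp from the summit in members and 37 bp in the other regions.

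**Figure D4:**
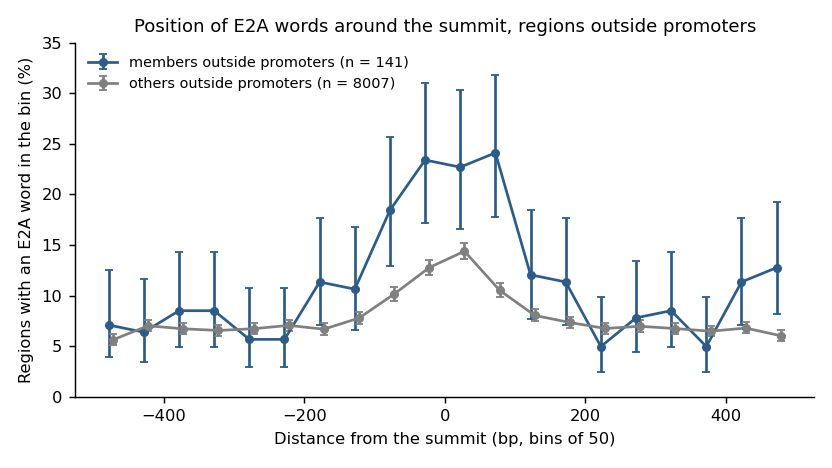
Share of regions outside promoters with the centre of an E2A word in each bin of 50 bp, by distance from the summit along the plus strand, for members (n = 141) and the other regions in all 4 lists (n = 8007), with 95% Wilson intervals. The members reach 24.1% near the summit and the others 14.4%, and the intervals of the groups overlap in most bins farther than 200 bp away.

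Other factors' words differed less. A STAT word was in 25 members (12.2%) and in 7.80% of the others, a difference of 4.39 points (0.571 to 9.59) that includes 0 at and outside promoters taken separately. RUNX words were in 22.0% of members and 17.3% of others, and EBF words in 15.6% and 11.5%, with intervals that include 0. At promoters alone RUNX words were more frequent in members (21.9% against 11.9%, difference 9.93 points, 1.53 to 21.5). Words of the promoter factors were rarer: SP1 (GGGGCGGGG) was in 3 members (1.46%) and 6.23% of the others (difference -4.76 points, -5.80 to -1.99), and NFY in 8 members (3.90%) and 8.60% (difference -4.70 points, -6.66 to -1.07). Without CDK6-K43M replicate 2 the NFY difference was -2.88 points and its interval (-5.09 to 0.325) included 0, and the SP1 difference was -2.84 points (-4.43 to -0.195). Outside promoters alone the SP1 (-0.265 points) and NFY (0.803 points) intervals included 0, and at promoters both lay below 0 (-8.25 and -12.3 points). In the set strong in replicate 2 only, the shares were also low (SP1 0.226%, NFY 3.84%). No promoter member held an NFY word (0 of 64, up to 5.66%), where 12.3% of the other promoter regions did. The ETS core was as frequent in members as in the others within error (31.7% and 29.0%, difference 2.67 points, -3.36 to 9.36). For the longer ETS word (CCGGAAGT), PU.1 (GAGGAAGT), AP-1, CTCF (CCANNAGGG), IRF (GAAANNGAA), the E-box CACGTG, NRF-1 (CGCATGCG) and GFY (ACTACAATT) the intervals also included 0. A match of letters is a description of the sequence and not a bound site.

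The 4 summits of a member fell close together, a median of 65 bp apart from the first to the last (quartiles 45 and 104 bp), where the quartiles of the other regions were 60 and 215 bp. In members the median distance was 26 bp between the replicate 1 lists and 28 bp between the replicate 2 lists. It was 34 bp between the CDK6-WT lists and 40 bp between the CDK6-K43M lists. In members, wildtype and kinase-inactive CDK6 of the same number thus peaked a little closer together than the replicates of a variant. In the other regions the medians were 36 bp between the replicate 1 lists and 51 bp between the replicate 2 lists. They were 49 bp between the CDK6-WT lists and 49 bp between the CDK6-K43M lists, so the order did not hold there for replicate 2.

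Rank order between the variants followed the replicate number. Over the 205 members, Spearman's rho of the fold enrichment was 0.48 between CDK6-WT and CDK6-K43M of replicate 1 and 0.71 between those of replicate 2. It was -0.02 between the CDK6-WT replicates and -0.01 between the CDK6-K43M replicates. These are descriptions over regions that share libraries and a common lower limit, and in the 16171 other regions, where the range is wider, rho was 0.81, 0.68, 0.13 and 0.06 in the same order. When ranks were averaged over replicates first, rho between the variants was 0.57, whereas between the replicate numbers it was -0.02. The panels of folds between lists show the contrast, with a trend along the diagonal in the upper row and no trend in the lower.

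**Figure D5:**
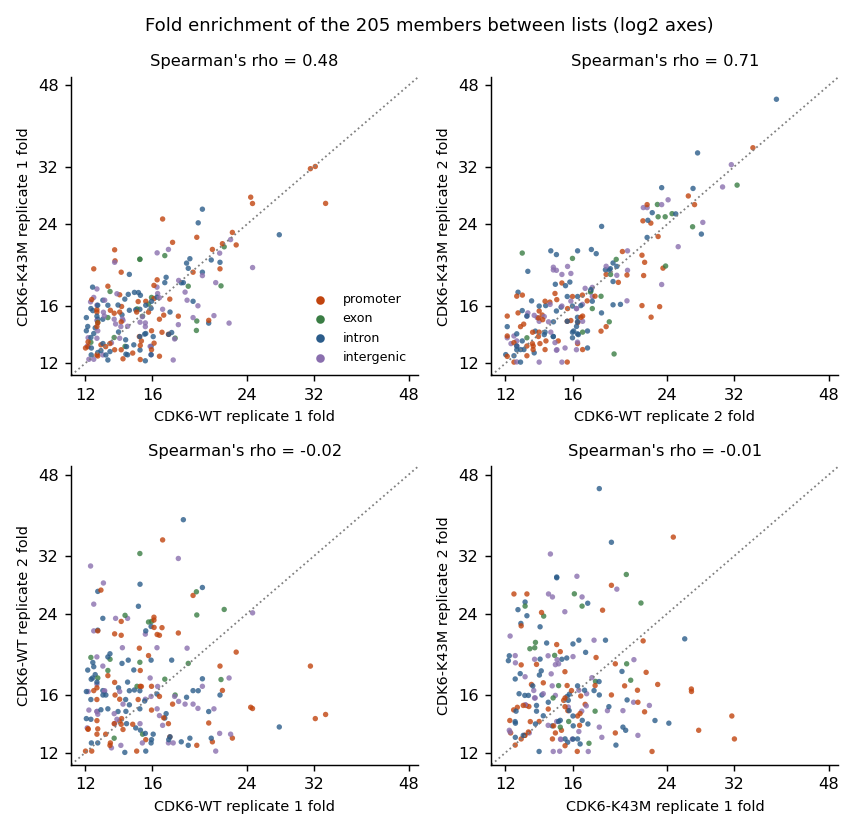
Each point is 1 of the 205 members, coloured by location class, with its fold enrichment in 2 lists on log2 axes that begin near the threshold of 12. The upper panels set CDK6-WT against CDK6-K43M within replicate 1 (rho = 0.48) and replicate 2 (rho = 0.71), and the lower panels set the replicates of CDK6-WT (rho = -0.02) and of CDK6-K43M (rho = -0.01) against each other.

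The upper end of the lists showed the same order. Of the 10 highest members, 7 were common to both replicate 1 lists and 7 to both replicate 2 lists, but 0 to both CDK6-WT lists and 1 to both CDK6-K43M lists. By mean rank over replicates, the variants shared 6 of their 10 highest members (Wnt10a, Lifr, Cuedc1, Rmi2, Nod2 and the Rnu3b4 region near Tex14). Among the 50 highest, the replicate 1 lists shared 33, the replicate 2 lists 38 and the variants by mean rank 24. The mean rank of a member changed by a median of 25.5 places of 205 between the variants, and 82 members moved by at most 20 places.

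The extremes among the members, chosen after their values were seen, were of different kinds, although the highest folds of the other regions were higher still (34.3 to 48.2 over the 4 lists). The highest member of both replicate 2 lists was in an intron of Nod2, an intracellular sensor of bacterial peptidoglycan, with 38.3 in CDK6-WT and 44.8 in CDK6-K43M, where the replicate 1 values were 18.3 and 17.9. The highest member of CDK6-WT replicate 1 was the promoter of Mapkapk5, a stress-activated kinase, with 33.6 in that list and 26.6 in CDK6-K43M replicate 1, where the replicate 2 values were 14.5 and 16.3. The highest member of CDK6-K43M replicate 1 was the promoter of Ythdf2, a reader of N6-methyladenosine in RNA, with 32.02 in that list and 32.2 in CDK6-WT replicate 1 against 14.2 and 12.8 in replicate 2. In all of these the variants of a number lay far closer than the numbers of a variant. Of the members, 50 had both replicate 1 folds above both replicate 2 folds (24.4%), where the share over all regions in all 4 lists was 52.9%, and 78 had the opposite order (38.05%), where it was 20.2%. Since the threshold acts most on the list with the lowest values, nothing is read from these shares.

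Between the variants the folds of members differed little. The log2 fold enrichment of CDK6-K43M minus that of CDK6-WT had a median of 0.02 over the members (quartiles -0.09 and 0.13). It was 0.03 within replicate 1 and 0.02 within replicate 2. Both CDK6-K43M values lay above both CDK6-WT values in 24 members (11.7%), where the share over all regions in all 4 lists was 7.06%. Both CDK6-WT values lay above both CDK6-K43M values in 14 members (6.83%), where that share was 6.36%. As the rule used these values, the counts are a description. With percentiles within each list in place of fold enrichments, the counts were 17 and 16 members, where 10.2% and 5.67% of all regions in all 4 lists were in those orders. Within each replicate number taken alone, CDK6-K43M had the higher fold in both numbers in 62 members (30.2%), where the share over all regions in all 4 lists was 24.8%, and CDK6-WT in 42 (20.5%), where it was 24.6%.

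Among the members in which the variants did not overlap, those with the largest differences toward CDK6-K43M lay outside promoters. In an intron of Ppp1r16b, a regulatory subunit of protein phosphatase 1 (chr2:158672775-158673935), folds were 13.2 and 14.9 in CDK6-WT and 16.03 and 20.6 in CDK6-K43M. The difference was 0.37 on the log2 scale, with 0.28 within replicate 1 and 0.47 within replicate 2. Upstream of Il10ra, the receptor chain for interleukin 10, they were 12.6 and 14.7 in CDK6-WT and 16.03 and 19.4 in CDK6-K43M, and in an intron of Creb3l1, 9427 bp upstream of Dgkz, a diacylglycerol kinase, 12.9 and 16.3 and then 16.4 and 21.03. The summits of the region near Dgkz held 39 and 45 reads in CDK6-WT and 51 and 53 in CDK6-K43M, before scaling. The scale of replicate 1 was 0.97 in CDK6-WT and 0.81 in CDK6-K43M, so that the scaled reads of that number differed less than these counts. The local background there, in scaled units, was 2 in CDK6-WT and 1.58 in CDK6-K43M. The higher fold of CDK6-K43M in replicate 1 thus came with a lower background as well as more reads. The summits of the region near Il10ra held 38 and 63 reads in CDK6-WT and 58 and 53 in CDK6-K43M. In replicate 2 CDK6-WT thus had more reads there, and the higher fold of CDK6-K43M came with a lower local background.

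Toward CDK6-WT the largest differences were at promoters. In the promoter region near Mad1l1, a spindle checkpoint protein, folds were 16.1 and 22.4 in CDK6-WT and 13.3 and 15.1 in CDK6-K43M, a log2 difference of -0.42 (-0.28 within replicate 1 and -0.57 within replicate 2). The summits of the variants in this region lay 1061 bp apart in replicate 1, so that the lists did not peak at the same place. At Haao, an enzyme of tryptophan breakdown, they were 15.9 and 16.7 against 12.8 and 12.8, and at Cyth1, an exchange factor for ARF GTPases, 15.2 and 18.1 against 12.2 and 14.1. The Cyth1 summits lay 387 bp apart in replicate 2. In replicate 1 they held 41 reads in CDK6-WT and 59 in CDK6-K43M, so that CDK6-K43M had more reads and its lower fold came with a higher local background. By location class, 9 of 64 promoter members lay higher in CDK6-K43M and 8 in CDK6-WT, where 4.97% and 4.67% of the other promoter regions in all 4 lists did. Of the 141 members outside promoters, 15 and 6 did, where the shares of the other such regions were 9.07% and 8.07%. No test was run on these differences, since the rule used their values.

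The nearest protein-coding genes were many and seldom repeated. The 205 members had 197 distinct nearest protein-coding genes, and 127 had a protein-coding gene over the summit. Only 7 genes were nearest to several members: Tex14 to 3, and Agpat3, Bcl2l1, Itpr2, Rftn1, Smad3 and Tpra1 to 2 each. Members with a neighbour within 50 kb formed 7 stretches with 16 members. The Tex14 stretch spanned 37072 bp of chromosome 11 and another on chromosome 2 spanned 43120 bp and held the regions near Cox4i2 and Bcl2l1. The Smad3 pair, near the gene for a signal transducer of TGF-beta, spanned 6041 bp.

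Chromosome 11 held most members, 26 (12.7%) against 8.68% of the other regions (difference 4.001 points, 0.0966 to 9.27). Chromosome 3 held 4 (1.95% against 5.11%, difference -3.16 points, -4.40 to -0.187), and chromosome X held none (95% Wilson interval up to 1.84%) where 0.829% of the others lay. All 20 chromosomes were compared, with no adjustment. The widest member, 7195 bp near Tnrc18, was assembled from 27 peaks with folds of 13.6 and 13.9 in CDK6-WT and 15.4 and 15.6 in CDK6-K43M. The narrowest, 436 bp and 63210 bp from Mcfd2, had folds of 13.6 and 14.6 in CDK6-WT and 14.9 and 14.02 in CDK6-K43M.

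Genes of lymphoid identity and of BCR::ABL1 signalling were near a small share of the members and a similar share of the other regions. Of 56 lymphoid and haematopoietic transcription factor genes, 4 had a member at the promoter or as the nearest start, where 46 had a region in all 4 lists. As a share of regions this was 1.95% of the members and 1.86% of the others (difference 0.0899 points, -1.12 to 3.05). The region assigned to Id2, whose protein binds E proteins and keeps them off DNA, lay 93461 bp upstream, over an exon of the long non-coding Gm36287, and had folds of 15.7 and 23.0 in CDK6-WT and 16.1 and 26.5 in CDK6-K43M. Both replicate 2 values were higher than both replicate 1 values, and the window held E2A and RUNX words. The intron of Ikzf3, which encodes the lymphoid factor Aiolos, had folds of 12.1 and 16.3 in CDK6-WT and 14.1 and 14.4 in CDK6-K43M. The intron of Runx2 had 12.4 and 17.4 and then 17.5 and 16.4, and the region 12468 bp from the start of Nfkb1, an NF-kappaB subunit, had 12.9 and 18.5 and then 12.5 and 19.5. In these 4 regions the variants overlapped.

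Of 44 genes of the pre-B cell receptor, cell surface and recombination, 2 had a member and 38 a region in all 4 lists, which is 0.976% of the members and 0.785% of the others (difference 0.190 points, -0.533 to 2.70). In an intron of Cd38, an ectoenzyme of the B cell surface, folds were 17.4 and 19.03 in CDK6-WT and 13.99 and 18.04 in CDK6-K43M. The region 28894 bp upstream of Lyn, a SRC-family kinase of B cell receptor signalling, had 16.5 and 14.4 in CDK6-WT and 16.6 and 14.8 in CDK6-K43M. Both of these windows held an E2A word.

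Of 53 genes of ERK and JAK-STAT feedback and immediate early response, 2 had a member and 51 a region in all 4 lists, and their regions made up 1.46% of the members and 1.42% of the others (difference 0.0411 points, -0.943 to 2.80). The region 5471 bp upstream of Il2ra, the alpha chain of the interleukin 2 receptor and a known STAT5 target, had folds of 18.6 and 20.2 in CDK6-WT and 16.4 and 16.4 in CDK6-K43M, so that both CDK6-WT values lay above both CDK6-K43M values. Bcl2l1, which encodes the survival protein BCL-XL, had a member at its promoter with folds of 17.1 and 13.9 in CDK6-WT and 13.9 and 14.02 in CDK6-K43M. A second lay in its intron, 33775 bp downstream of the start, with 12.3 and 14.2 and then 13.6 and 13.8, and held E2A and STAT words. None of 16 genes that earlier work names as CDK6 targets had a member, where 10 had a region in all 4 lists (0 of 205 members, 95% Wilson interval up to 1.84%, against 0.216% of the others). None of Cdk6, Abl1 and Bcr did, where all 3 had a region in all 4 lists (0.0989% of the others).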

How the data were processed

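CDK6 binding was measured by anti-HA ChIP-seq in 4 libraries, 2 per variant, grouped by variant and replicate number as in their titles. The authors trimmed reads with Trimmomatic (0.36), mapped them to mm10 with bwa-mem (0.7.15), removed blacklisted regions, multimapping reads and reads of low mapping quality, and called peaks per library, not on pooled replicates, with MACS2 (2.1.0). The deposited lists give for each peak a fold enrichment (a ratio to the local background), the −log10 p and −log10 q, a score derived from the −log10 q, and other information, the position of the summit. They hold no read totals.

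Overlapping peaks (1 bp or more) of all lists were joined into regions. A region's fold in a list is that of its highest peak there. Reads and background at the summit were solved from the fold and −log10 p with the MACS2 formulas. These add 1 to both, after the reads are multiplied by a scale per list (0.812 to 1). Reads are given here before that scaling. Of the regions in all 4 lists, 100% gave whole reads within 0.01 reads. Locations used GENCODE M21 on GRCm38.p6 (the authors used M13) and motif windows the same assembly. Shares carry 95% Wilson and differences 95% Newcombe intervals, which cover counting error only. Merging and membership, the recovery of reads at the summit and the matching of E2A words were tested on simulated data. Named regions are the 10 with the lowest mean rank, the 3 per direction with the largest difference between non-overlapping variants, the 3 on each side of the threshold, those at genes of 5 lists, and the widest, narrowest and most clustered. The members, lists, motifs and rules were chosen with earlier results of these data known. Alternatives were other thresholds, merging within 500 bp, equal numbers of top ranks, other promoter and motif windows, ranking by −log10 q, percentiles within lists, a block for the replicate number, and the omission of single libraries. 32 regions outside chromosomes 1 to 19 and X were not used (0 passed the threshold). Computations ran in Python 3.11.15 (statsmodels 0.14.6, scipy 1.17.1, pandas 2.3.3, numpy 2.4.6, pysam 0.24.0, matplotlib 3.10.9).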

Additional observations from a re-analysis of the deposited data

How the results depend on the processing

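The threshold set the number of members: 619 regions passed at a fold of 10, 29 at 15, and 62 when the same number of top ranks (1863) was taken from each list. Merging peaks within 500 bp gave 220. At 10 the counts with CDK6-K43M or CDK6-WT above were 49 and 41 and at 15 they were 2 and 1. The E2A share of members was 46.2% at 10 and 65.5% at 15, and 33.7% and 71.7% with windows of 50 and 200 bp to each side. In all 20 alternatives of the E2A difference, at all regions or outside promoters, its interval stayed above 0. The promoter difference kept an interval below 0 in 8 of 9 alternatives; at 15 it was -15.8 points with an interval that includes 0. With promoters of protein-coding transcripts alone, 20.98% of members were promoters. The summit spread was 76 bp at 15. The EBF difference reversed at 15, to -1.25 points. At 15 the intervals of NFY (-1.65 points), SP1 (-6.18 points) and STAT (5.94 points) included 0, as did that of NFY without CDK6-K43M replicate 2 (-2.88 points). The RUNX and EBF intervals, which include 0 at 12, lay above 0 in 5 alternatives each.

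Leaving out each library in turn, which lowers the number of lists that must pass, gave 275 to 329 members (329 without CDK6-K43M replicate 2), promoter shares of 29.1% to 44.4%, median distances of 5913 to 9808 bp, summit spreads of 50 to 53 bp, E2A shares of 48.02% to 53.3%, and correlations between the variants of 0.28 to 0.49. Counts with CDK6-K43M above ran from 69 to 133 and with CDK6-WT above from 55 to 94, since 1 variant is then held by a single library.

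With the replicate number as a block, the variants' rank correlation was 0.59 in place of 0.57, and 62 members were higher in CDK6-K43M and 42 in CDK6-WT within both numbers (24.8% and 24.6% of all regions in all 4 lists). The labels do not say that a number marks a shared culture or batch, and whether it marks a shared input was not tested. With 2 pairs, the pairing was made by the number in the titles. Of 148 alternative values of 16 results, 98 were called the same. For differences this meant the same direction and call, and for shares and medians a value inside the interval given. Counts were allowed a fixed factor, under which the 304 members without CDK6-WT replicate 2 were called the same as 205. Correlations were allowed the SD between the correlations within the replicate numbers (0.16). The rules for counts and correlations are not errors of the values.

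Depth limits single regions, with 30 to 137 reads at a summit. The counting error of a single value was 13.5% to 15.2% at the median member. A difference between lists carries the errors of both values and so a larger one. Differences of the size of the single error, or somewhat above it, cannot be told from noise. No read totals are stated in the lists.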
